A study of Mus musculus with 8 samples.

Results

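The genes described here are 36 regulators of mitochondrial biogenesis, mitochondrial DNA upkeep, fusion, fission, mitophagy and inner-membrane protein quality control, taken by symbol from a fixed list. Of these, 35 are present in both result tables, out of 13676 genes with PBS and 14193 with interleukin 4 (IL-4), and Ppargc1a, a coactivator of biogenesis, is listed in neither. The study grew macrophages from the bone marrow of 12-week-old female mice, wild type (WT) or knocked out for NF-κB-inducing kinase (NIK KO), with 2 mice of each genotype. Marrow was kept for 7 days in medium with 30% L929 supernatant, a fibroblast product that supplies the growth factor M-CSF, and cells were replated in 5%. Cells of each mouse then received PBS or 20 ng/mL IL-4 over 6 hours, which gave 8 RNA libraries in 4 groups of 2. All groups shared the L929 medium, and neither the allele nor the cells it acts in is given by the labels. The series title names mitochondrial respiratory capacity as a subject, and the comparison made here asks whether transcripts that build and maintain mitochondria differed with the genotype. Each table gives 1 value per gene and comparison over 4 libraries. Values of single libraries were not analysed here, so group means and standard errors stand in for them.

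A cell makes new mitochondria by raising nuclear transcription of mitochondrial proteins and by copying and transcribing mitochondrial DNA. Coactivators of the PGC-1 family (Ppargc1a, Ppargc1b) work through the nuclear factors NRF1, GABP and ERRα, and these act on the genes of the mitochondrial polymerase and its partners. The network is remodelled by fusion and fission, and damaged pieces are removed by mitophagy. In macrophages IL-4 is known to shift metabolism towards oxidative respiration, and Ppargc1b is a known target of that programme.

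The link between the nuclear factors and mitochondrial transcription is written in promoter sequence, so the promoters of 4 genes discussed below are shown: Tfam, Tfb2m and Polrmt, whose products transcribe mitochondrial DNA, and Mfn1, a fusion gene. They run from 250 bases before to 50 bases after the start of transcription, come from RefSeq (GRCm38.p6), and are written 5′ to 3′ in the direction of the gene. Capitals mark the letters GCGCANGCG, the core bound by NRF1, and CCGGAAG, the core bound by ETS factors such as GABP, on either strand.

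Tfam, chr10:71237995-71238294, minus strand: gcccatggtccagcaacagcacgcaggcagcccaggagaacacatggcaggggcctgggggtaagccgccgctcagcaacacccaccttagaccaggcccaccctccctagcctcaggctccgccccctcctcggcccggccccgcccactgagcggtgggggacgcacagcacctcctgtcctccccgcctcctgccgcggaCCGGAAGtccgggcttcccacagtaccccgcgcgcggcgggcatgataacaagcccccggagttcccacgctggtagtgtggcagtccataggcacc

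Tfb2m, chr1:179546227-179546526, minus strand: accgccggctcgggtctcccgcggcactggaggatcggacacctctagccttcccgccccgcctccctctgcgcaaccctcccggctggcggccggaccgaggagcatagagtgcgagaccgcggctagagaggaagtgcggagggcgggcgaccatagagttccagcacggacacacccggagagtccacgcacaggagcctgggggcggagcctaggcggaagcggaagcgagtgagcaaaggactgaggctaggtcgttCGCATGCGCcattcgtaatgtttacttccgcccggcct

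Polrmt, chr10:79746532-79746831, minus strand: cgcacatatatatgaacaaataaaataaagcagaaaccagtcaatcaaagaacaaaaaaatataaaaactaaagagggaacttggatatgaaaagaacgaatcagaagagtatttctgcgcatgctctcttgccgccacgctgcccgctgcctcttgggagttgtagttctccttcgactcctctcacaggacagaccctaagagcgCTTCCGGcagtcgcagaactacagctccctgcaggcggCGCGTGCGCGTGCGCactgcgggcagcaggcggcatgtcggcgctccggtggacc

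Mfn1, chr3:32529232-32529531, plus strand: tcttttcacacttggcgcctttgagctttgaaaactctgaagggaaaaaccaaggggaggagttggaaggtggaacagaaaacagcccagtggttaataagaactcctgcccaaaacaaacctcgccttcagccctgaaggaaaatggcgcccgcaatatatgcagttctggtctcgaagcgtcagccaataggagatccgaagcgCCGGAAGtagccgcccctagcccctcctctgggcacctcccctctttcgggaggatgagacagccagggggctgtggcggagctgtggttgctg

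Tfam and Mfn1 hold the ETS core, Tfb2m holds the NRF1 core, and Polrmt holds the ETS core beside overlapping matches to the NRF1 core. Promoter windows were found for 32 of the 36 listed genes (39 windows). The NRF1 core was in 10 of the 39, or 25.6%, against 6.25% of all 32851 windows of the same length. The ETS core was in 16 of the 39, or 41.0%, against 8.86%. Besides the genes shown, NRF1 letters were in the windows of Bnip3, Esrra, Immt, Oma1, Opa1, Phb, Pink1 and Spg7. Besides Tfam, Mfn1 and Polrmt, the ETS letters were in those of Clpp, Dnm1l, Fis1, Gabpa, Immt, Mief1, Phb2, Polg, Polg2, Ssbp1, Twnk and Yme1l1. The ERR element TCAAGGTCA was in 0 of the 39 and in 0.423% of all windows, which says only that these letters are not in those stretches. Neither core contains the other, and matches within a window may overlap, as in Polrmt. The 32851 windows were not matched to the members for expression or base composition, so this count cannot say whether the gap in share is particular to these genes. A match is a description of sequence, not a measured site.

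Some facts of the whole series bear on the values that follow. Base means summed to 1.42e+07 with PBS and 1.66e+07 with IL-4. Map3k14, the gene of NIK, stood higher on the side labelled NIK KO, with means of WT and then NIK KO of 425 and 902 with PBS and 418 and 832 with IL-4. With IL-4 it was among the 17 genes called, at an adjusted p of 0.00782 in the authors' deposited table (DESeq2 Wald test). With PBS it was not called. The higher level goes against the label of a knockout, although counts from outside a removed part would still appear. If the tables ran WT over NIK KO, every sign given here would turn. All 10 macrophage markers were present, with a median base mean of 12551 with PBS and 8788 with IL-4. Fibroblast and erythroid markers were scarce, with no base mean above 79.4. With IL-4 8 of 9 fibroblast markers and 4 of 6 erythroid markers were lower on the side labelled NIK KO, and Thy1, Ahsp and Epor were not listed. Of the fibroblast markers, the collagen genes Col3a1 and Col5a1 were among the 17 genes called with IL-4, at adjusted p of 0.0107 and 0.0401 in the authors' deposited table (DESeq2 Wald test). Summed means with IL-4 were 486 in WT against 168 for the fibroblast list and 344 against 158 for the erythroid list. With PBS those sums were 119 against 109 and 96.1 against 103. The part of those cells in the member values was not tested.

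No gene of the group was called different between the genotypes, with PBS or with IL-4. In the results the authors deposited, 0 of 35 had an adjusted p under 0.05 (DESeq2 Wald test, Benjamini-Hochberg over the table) under either treatment, where 0.0366% of all genes were called with PBS and 0.125% with IL-4. An unadjusted p under 0.05 was found for 0 of 35 as well, against 1.24% of all genes in the PBS comparison and 2.95% in the IL-4 comparison. The smallest unadjusted p of the group was 0.262 with PBS (Tfam) and 0.278 with IL-4 (Nrf1). With PBS 17 genes stood higher and 18 lower on the side labelled NIK KO, with a median log2 fold change of -0.0014. That median was -0.010 over all 13676 genes. With IL-4 18 were higher and 17 lower, with a median of 1.4e-04, beside -0.0064 over all 14193 genes. The members were thus spread evenly around no change. In bulk RNA, fewer cells of a type and less RNA per cell cannot be told apart, for any gene here.

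The standard errors say how large a change could have gone unseen. With IL-4 the 95% interval of the fold change, from the deposited standard error, lay wholly between a 2-fold decrease and a 2-fold increase for 32 of 35 genes. The exceptions were Tfb1m, Polg2 and Mtfp1, the last with the fewest reads of the group. With PBS it did so for 31 of 35, with Ppargc1b as a further exception. Changes of 1.5-fold were outside the interval for 22 of 35 genes with IL-4 but for only 4 of 35 with PBS, where the median standard error was 0.29 on the log2 scale against 0.22. An interval that leaves out a fold does not mean that such a fold would have been called. Map3k14 was over 2-fold apart with PBS and had an adjusted p of 0.176 in the authors' deposited table (DESeq2). With IL-4, where errors were smaller, it was called, as given above. The intervals are per gene and take the errors as normal. They are not widened for the number of genes or for having only 2 mice per group. With a t distribution they would be wider, and fewer genes would exclude a given fold. Such intervals were not computed.

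**Figure D1:**
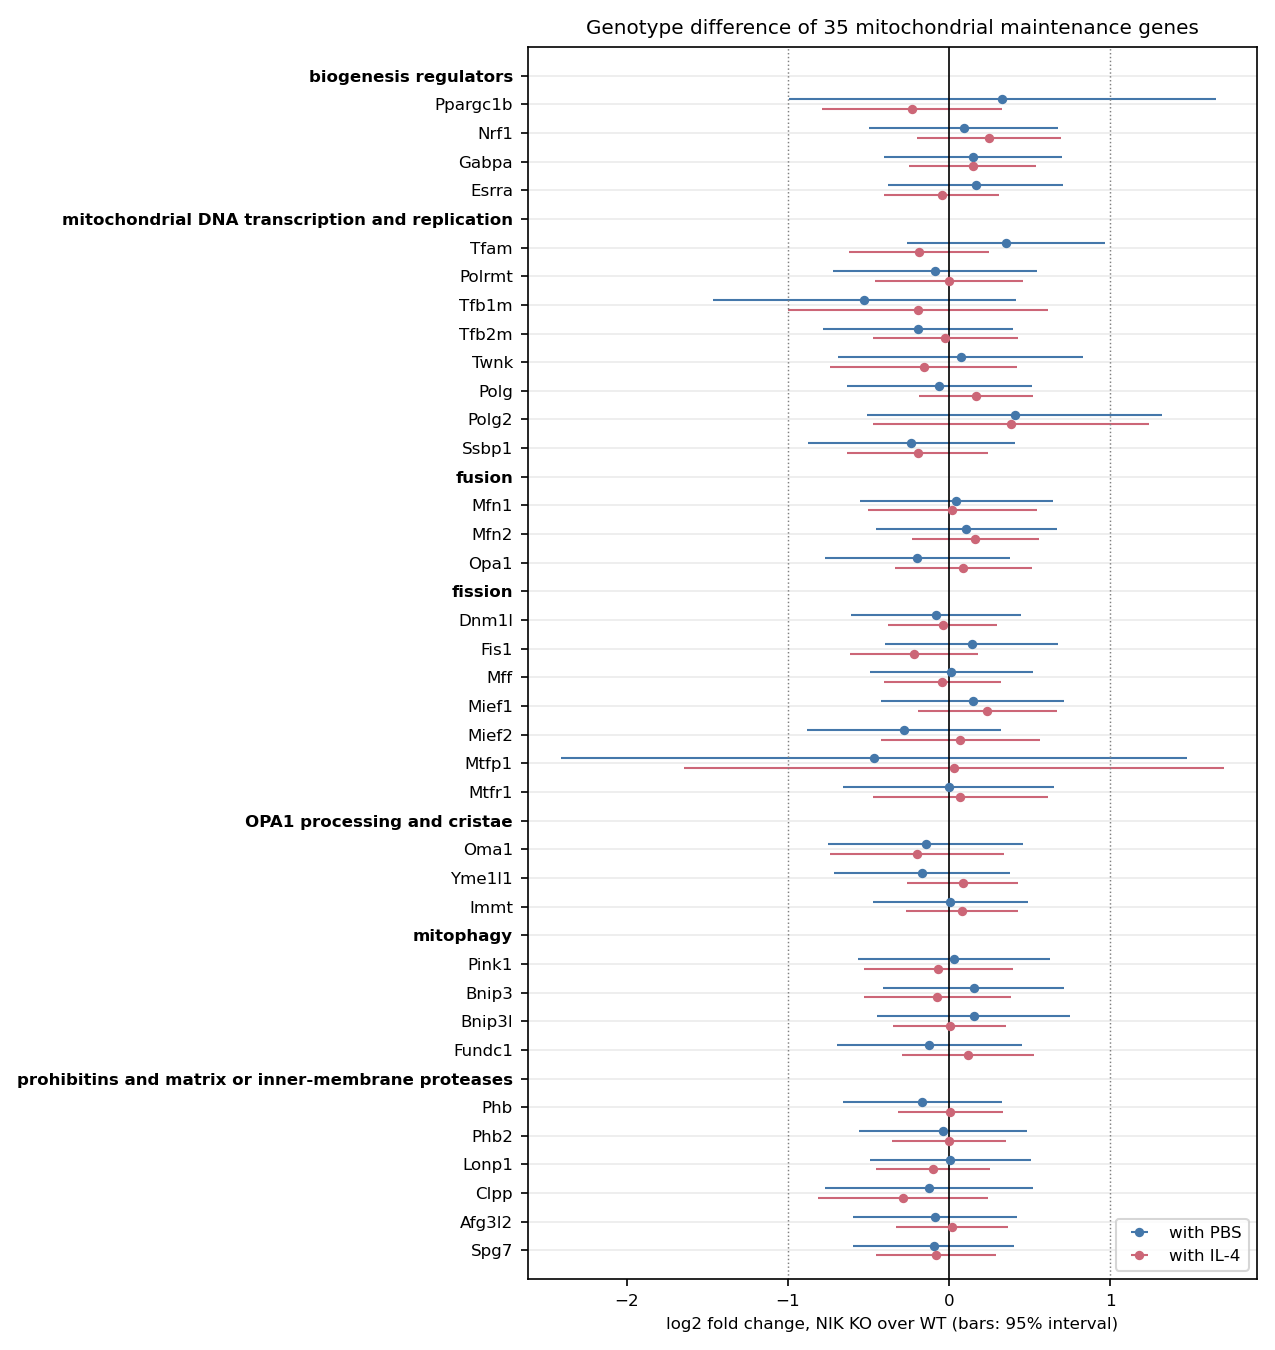
Log2 fold change, NIK KO over WT, of the 35 measured genes grouped by role, with PBS (blue) and with IL-4 (red). Points are values of the authors' deposited tables, bars are 95% intervals from the deposited standard errors, and dotted lines mark a 2-fold change. Every interval crosses 0, and the widest belong to Mtfp1.

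Among the regulators of biogenesis, Ppargc1b, the PGC-1β coactivator, had the widest errors. Its group mean of normalized counts was 41.8 in WT and 52.6 in NIK KO with PBS, and 312 and 266 with IL-4. Both genotypes were therefore low with PBS and several-fold higher with IL-4, and the order of the genotypes changed between treatments. The authors' deposited tables put it at 0.33 ± 0.68 (log2 fold change ± standard error, NIK KO over WT, 2 mice each) with PBS and at -0.23 ± 0.28 with IL-4. Nrf1, the nuclear respiratory factor, had group means of 408 in WT and 435 in NIK KO with PBS and 458 and 544 with IL-4. Its value with IL-4, 0.25 ± 0.23 in the authors' deposited table, was the highest Wald statistic of the group there, and it lay near 1 standard error from 0. Gabpa, the DNA-binding subunit of GABP, was at 0.15 ± 0.28 and 0.15 ± 0.20 in the authors' deposited tables. Esrra, the nuclear receptor ERRα, was at 0.17 ± 0.28 and -0.05 ± 0.18 there. All 4 measured regulators were thus on the higher side with PBS and 2 of 4 with IL-4, all with 95% intervals that hold 0.

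The genes that copy and transcribe mitochondrial DNA held the outer values of the group with PBS. Tfam, which packs mitochondrial DNA and starts its transcription (ENSMUSG00000003923, chromosome 10), had group means of 351 in WT and 449 in NIK KO with PBS and of 527 and 463 with IL-4. The genotype order was reversed between the treatments. The authors' deposited tables give Tfam at 0.35 ± 0.32 with PBS, a 1.28-fold higher level, and at -0.19 ± 0.22 with IL-4. At the other end was Tfb1m, the methyltransferase of the mitochondrial small ribosomal RNA (ENSMUSG00000036983, chromosome 17), with 84.9 in WT and 59.0 in NIK KO with PBS and 111 and 97.4 with IL-4. It was at -0.53 ± 0.48 and -0.19 ± 0.41 in the authors' deposited tables, a wide interval at a low level. Its relative Tfb2m, the transcription factor proper, lay closer to 0, at -0.19 ± 0.30 and -0.02 ± 0.23 in the authors' deposited tables.

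Polg2, the accessory subunit of the mitochondrial DNA polymerase (ENSMUSG00000020718, chromosome 11), stood higher with each treatment on the side labelled NIK KO, without passing a test. Its means were 76.7 in WT and 102 in NIK KO with PBS and 75.7 and 98.9 with IL-4. The authors' deposited tables give 0.41 ± 0.47 and 0.39 ± 0.44, so the shift is no larger than its error either time. The 2 values come from the same mice and are not independent. Polg, the catalytic subunit, was at -0.06 ± 0.29 and 0.17 ± 0.18 in the authors' deposited tables. Per kilobase of longest transcript, Polg stood 5.82-fold over Polg2 in WT with PBS and 4.21-fold in NIK KO. Ssbp1, which coats single-stranded mitochondrial DNA, was at -0.23 ± 0.33 and -0.20 ± 0.22 in the authors' deposited tables. Polrmt, the RNA polymerase of mitochondria, had means of 309 and 292 with PBS and of 416 in both genotypes with IL-4. Twnk, the replicative helicase, was at 0.07 ± 0.39 and -0.16 ± 0.30 in the authors' deposited tables.

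The fusion genes differed little between genotypes. Mfn1 and Mfn2, the mitofusins of the outer membrane, and Opa1, which fuses the inner membrane, lay between -0.20 and 0.11 with PBS and between 0.02 and 0.16 with IL-4 on the log2 scale. With the length trend of all genes subtracted, the IL-4 values of Mfn1 and Opa1 turned to -0.04 and -0.03. Mfn1 had means of 428 in WT and 442 in NIK KO with PBS and of 755 and 765 with IL-4. Mfn2 stood at 634 and 683, then 1125 and 1260. Opa1 stood at 898 and 784, then 1330 and 1415. In all 3 genes the gap between treatments was wider than the gap between genotypes.

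The fission genes had no common direction. Dnm1l, the GTPase that cuts mitochondria, had means of 1210 in WT and 1144 in NIK KO with PBS and of 1734 and 1687 with IL-4. Fis1, an outer-membrane adaptor (ENSMUSG00000019054, chromosome 5), had means of 1129 and 1244 with PBS and 1229 and 1057 with IL-4. That placed NIK KO above WT with PBS and below it with IL-4. The authors' deposited tables give Fis1 at 0.14 ± 0.27 and -0.22 ± 0.20. The dynamin receptors Mief1 and Mief2 were set side by side. Mief1 (ENSMUSG00000022412, chromosome 15) was at 0.15 ± 0.29 and 0.24 ± 0.22 in the authors' deposited tables, and Mief2 (ENSMUSG00000018599, chromosome 11) was at -0.28 ± 0.31 and 0.07 ± 0.25. Mff, the main receptor of the cutting GTPase, was at 0.01 ± 0.26 and -0.04 ± 0.18 there. Mtfr1 was at -0.00 ± 0.33 and 0.07 ± 0.28 in the authors' deposited tables. Mtfp1, an inner-membrane fission factor, was measured near the floor, with group means from 12.8 to 21.1, and its interval with IL-4 ran from 0.320-fold to 3.26-fold.

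Cristae and OPA1 processing showed the same. Oma1 and Yme1l1, the proteases that cleave OPA1, were at -0.15 ± 0.31 and -0.17 ± 0.28 with PBS and at -0.20 ± 0.28 and 0.08 ± 0.18 with IL-4 in the authors' deposited tables. Immt, the mitofilin subunit that shapes crista junctions, had means of 1376 in WT and 1384 in NIK KO with PBS and of 1900 and 2010 with IL-4.

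Of the mitophagy genes none lay more than 1 standard error from 0. Pink1, the kinase that marks depolarised mitochondria, had means of 982 in WT and 1003 in NIK KO with PBS and of 995 and 950 with IL-4. Its 4 group means thus span 950 to 1003, although PBS and IL-4 values were normalized separately. Divided by the median ratio of all genes, its ratio of IL-4 to PBS was 0.843 in WT and 0.782 in NIK KO. Bnip3, a receptor induced by hypoxia, stood at 401 and 446, then 430 and 409. Bnip3l, which clears mitochondria from maturing red cells, stood at 1523 and 1692 with PBS and at 1852 and 1858 with IL-4. Fundc1, an outer-membrane receptor, was at -0.12 ± 0.29 and 0.12 ± 0.21 in the authors' deposited tables.

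The prohibitins and proteases had median standard errors of 0.26 with PBS and 0.18 with IL-4 on the log2 scale. Phb and Phb2, which form rings in the inner membrane, were at -0.17 ± 0.25 and -0.04 ± 0.27 with PBS and at 0.01 ± 0.17 and 0.00 ± 0.18 with IL-4 in the authors' deposited tables. With IL-4 the means of Phb2 were 2879 and 2880, and the interval of the fold ran from 0.782 to 1.28. Clpp, the matrix protease (ENSMUSG00000002660, chromosome 17), had the lowest log2 value with IL-4, -0.29 ± 0.27 in the authors' deposited table, with means of 360 in WT and 295 in NIK KO. With PBS Clpp was at -0.12 ± 0.33 there (307 and 282). Lonp1, the other matrix protease of the list, was at 0.01 ± 0.26 and -0.10 ± 0.18 in the authors' deposited tables. The inner-membrane proteases Afg3l2 and Spg7 lay between -0.10 and 0.02 on the log2 scale under both treatments. With PBS 5 of these 6 genes were on the lower side and with IL-4 3 of 6. Clpp with IL-4 lay just beyond 1 standard error from 0, and the 95% intervals of all 6 genes hold 0 under both treatments.

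The NIK KO difference was then compared between treatments, gene by gene. A two-sided z test on the 2 deposited DESeq2 fold changes called 0 of 35 genes after Benjamini-Hochberg adjustment over 13384 genes, where 0.0149% of all genes were called. At an unadjusted p under 0.05 it found 0 of 35, against 0.867% of all. The smallest p was that of Tfam, whose difference (IL-4 minus PBS) was -0.54 ± 0.39 on the log2 scale (adjusted p = 1.00 in the z test on the DESeq2 estimates). Its interval, from -1.30 to 0.22, holds 0 and also holds a change of more than 2-fold. For Fis1 the difference was -0.36 ± 0.34, and for Ppargc1b -0.56 ± 0.73. The test takes the errors of the tables as independent although the mice are the same.

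Levels were read from the group means, with the reservation that the PBS and IL-4 tables were normalized separately, so a level set across them carries no test. Per kilobase of longest transcript, Fis1, Phb and Phb2 were the most abundant of the group in WT with PBS, at 1191, 928 and 895 normalized counts per kilobase. Esrra, Bnip3l and Pink1 followed at 480, 467 and 413. At the low end were Ppargc1b at 11.4, Mtfp1 at 12.5, Polg2 at 28.1 and Tfb1m at 35.1. These ranks depend on the length taken, and the longest transcript need not be the one expressed. Before division by length, Phb2 had the highest group mean in WT with PBS, 2125, and Fis1 stood at 1129. Within pairs, Mfn1 stood at 0.643 of Mfn2 per kilobase and Bnip3 at 0.489 of Bnip3l, while Phb and Phb2 were nearly equal at 1.04. Tfb1m stood at 0.223 of Tfb2m and Afg3l2 at 0.671 of Spg7, all in WT with PBS. The last ratio was 0.982 in WT with IL-4, and 0.675 and 1.05 in NIK KO.

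**Figure D2:**
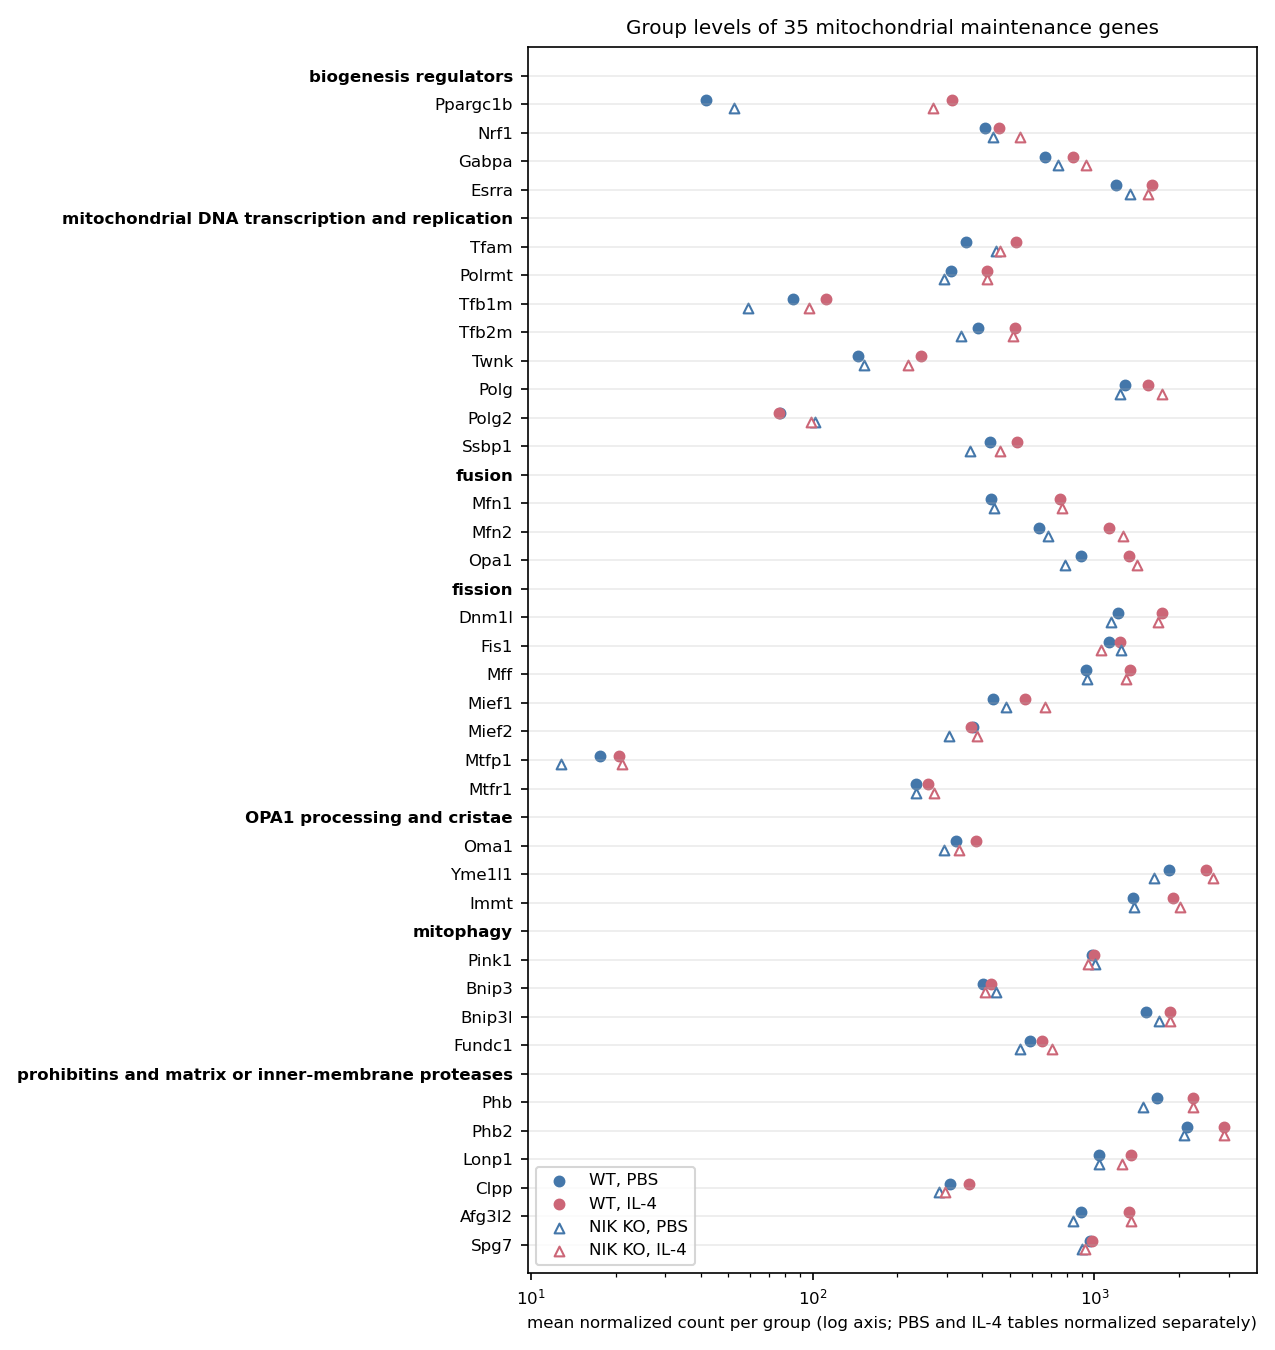
Mean normalized count (log axis) of each gene in the 4 groups, computed from base mean and fold change in each table: WT as circles, NIK KO as triangles, PBS in blue and IL-4 in red. The tables were normalized separately. Circles and triangles of a colour lie close together, and the widest gap between colours is that of Ppargc1b.

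Across treatments the ratio of IL-4 to PBS was computed in each genotype and divided by the median ratio of all 9148 genes with a base mean of 100 or more in both tables, which was 1.20 in WT and 1.21 in NIK KO. The scaled ratio of Ppargc1b was 6.21 in WT and 4.18 in NIK KO, at percentile 99.5 of 11668 genes by the mean of both genotypes. The WT and NIK KO ratios come from different mice, and both are above the all-gene median. Each is a ratio of means over 2 libraries, so single mice are not shown. Both genotypes also share the normalization of each table. No other member was above 1.52. IL-4 itself acted on these cells by the same reading: Arg1, arginase 1 and a standard IL-4 target, stood at 30.5 with PBS and 8190 with IL-4 in WT, and at 17.3 and 7136 in NIK KO.

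The fusion genes were above the all-gene median too. The scaled ratio was 1.47 in WT and 1.43 in NIK KO for Mfn1, 1.48 and 1.52 for Mfn2, and 1.23 and 1.49 for Opa1. All 3 exceeded 1 in both genotypes, also when the sum of base means was used for scaling. Above the all-gene median in both genotypes were also Afg3l2, Twnk, Yme1l1 (1.13 and 1.34), Dnm1l (1.19 and 1.22), Immt (1.15 and 1.20) and both prohibitins. So were Gabpa, Mff, Mief1, Polrmt, Tfb1m, Tfb2m, Polg and Ssbp1. With Twnk, that made 6 of the 8 genes that copy and transcribe mitochondrial DNA. The mitophagy genes lay lower. Pink1 was at 0.843 and 0.782, Bnip3 at 0.892 and 0.757, Bnip3l at 1.01 and 0.907, and Fundc1 at 0.918 and 1.08, so none was above the all-gene median in both genotypes. Fis1, Spg7 and Polg2 were below it in both, at 0.906 and 0.702, 0.844 and 0.848, and 0.822 and 0.803. Tfam was on opposite sides, 1.25 in WT and 0.852 in NIK KO. In all, 19 of 35 genes were above the all-gene median in both genotypes, 8 below in both and 8 on opposite sides. Of the 9148 genes, 37.4% were above in both, 37.4% below in both and 25.3% on opposite sides. Scaled by the sum of base means, the members' counts were 20, 6 and 9, beside 43.6%, 31.9% and 24.5% of the 9148. The median scaled ratio of the group was 1.08 in WT and 1.13 in NIK KO, and apart from Ppargc1b the scaled ratios lay between 0.702 (Fis1 in NIK KO) and 1.52 (Mfn2 in NIK KO). Without scaling, 30 of 35 genes had a ratio above 1 in both genotypes, as had 71.3% of the 9148.

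**Figure D3:**
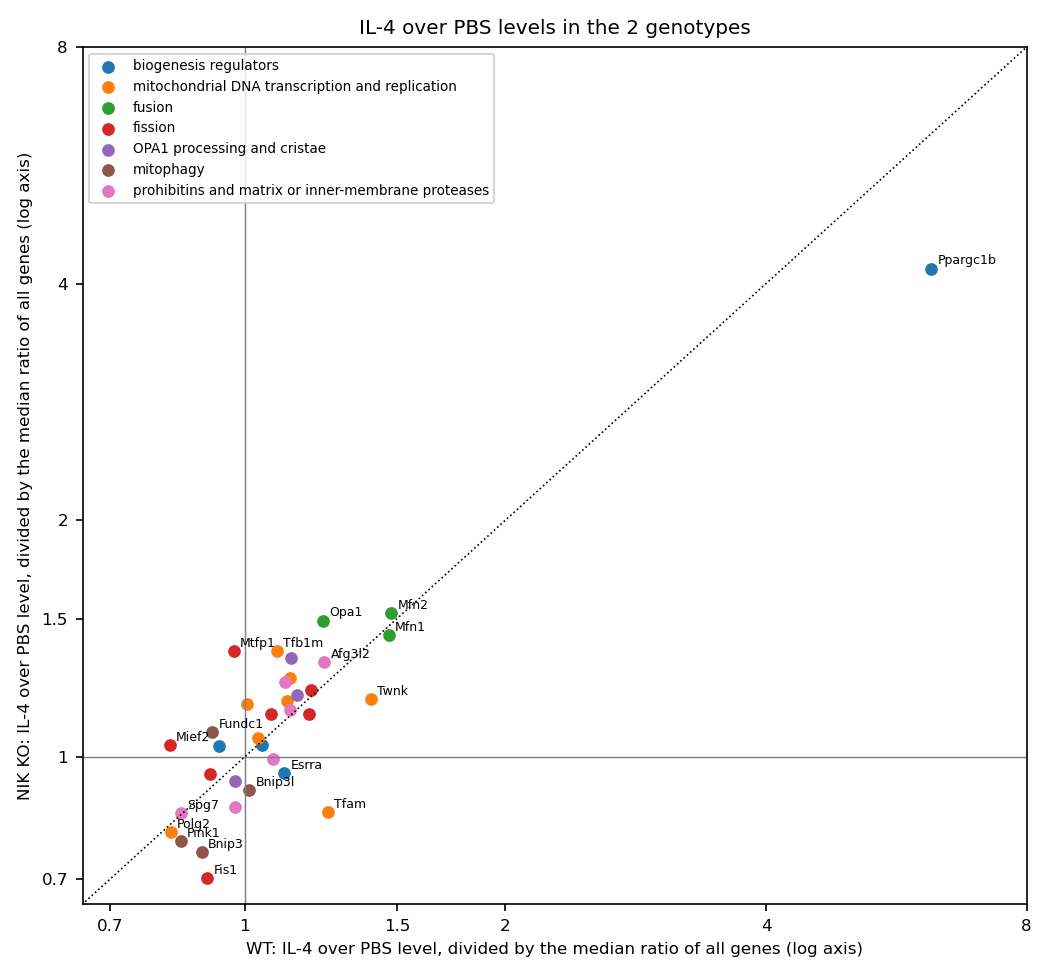
Ratio of the IL-4 level to the PBS level in WT (horizontal) and NIK KO (vertical), each divided by the median ratio of all genes, both on log axes, coloured by role. Ppargc1b stands alone at 6.21 and 4.18, the 3 fusion genes lie between 1.23 and 1.52 with a few genes of other roles among them, and grey lines mark the all-gene median.

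With IL-4 the genotype differences ran with transcript length. The shortest genes by longest transcript, Fis1 (948 bases) and Clpp (983 bases), had the 2 lowest Wald statistics with IL-4, and Polg, the longest at 7837 bases, had the third highest. Across the 35 genes the log2 fold change with IL-4 correlated with log2 length at Pearson's r = 0.41 and Spearman's rho = 0.41, as a description over genes that share the same 4 libraries. Over 9138 genes with a base mean of 100 or more the values were 0.35 and 0.41, of the same size as among the members. With PBS the members gave r = 0.18 and all such genes 0.040. When the running median of all genes at the same length was subtracted, the IL-4 value of Clpp went from -0.29 to -0.12, that of Fis1 from -0.22 to -0.05 and that of Polg from 0.17 to 0.06. Nrf1 and Mief1 stood at 0.22 and 0.17 after it. The part of RNA length or quality in these values was not tested.

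**Figure D4:**
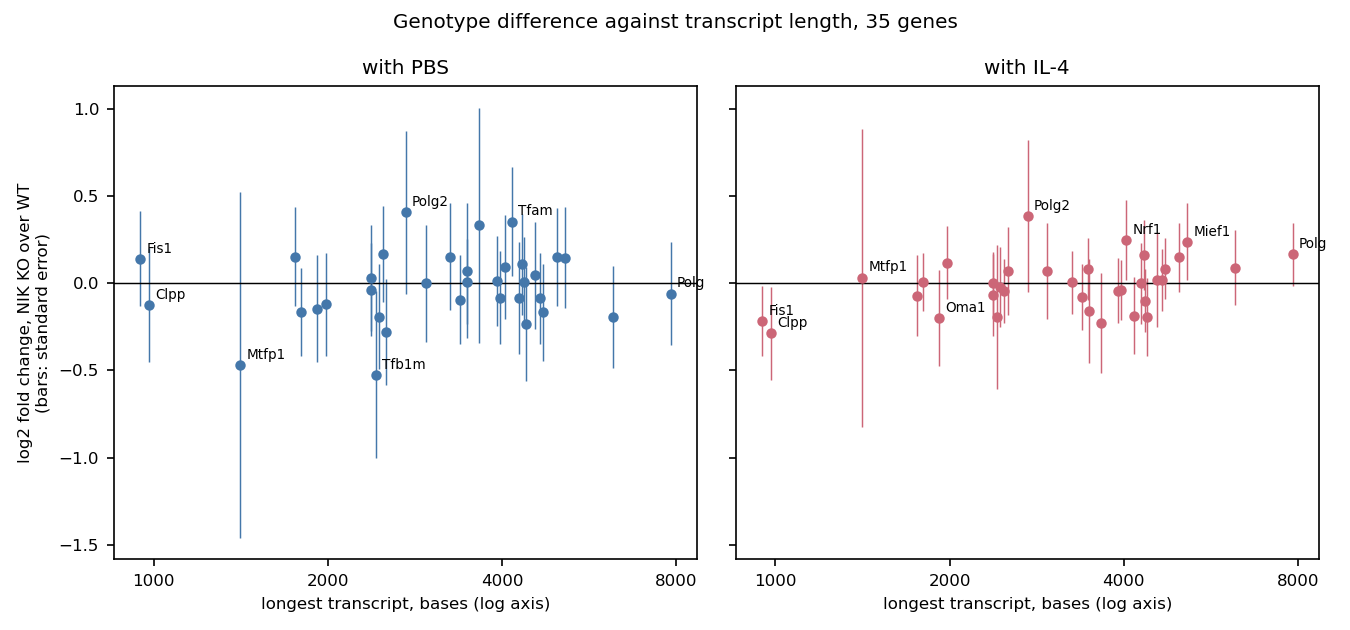
Log2 fold change, NIK KO over WT, against the length of the longest transcript (log axis) for the 35 genes, with PBS on the left and IL-4 on the right. Points are values of the authors' deposited tables and bars are standard errors. With IL-4 the shortest genes, Fis1 and Clpp, lie below 0 and the longest, Polg, above it.

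Further genes of the same processes were taken from a list of 112 that holds upstream regulators, DNA maintenance factors, adaptors of fusion, fission and transport, MICOS and SAM subunits, mitophagy machinery and proteases. Of these, 105 were in both tables. In the results the authors deposited, 0 of 105 were called under either treatment, where 0.0366% of all genes were called with PBS and 0.125% with IL-4. An unadjusted p under 0.05 was found for 0 with PBS, against 1.24% of all genes. With IL-4 it was found for 1 of 105, against 2.95% of all genes, a count too small to set the shares apart. That gene was Slirp, a stabiliser of mitochondrial messenger RNA, with means of 562 in WT and 393 in NIK KO and a log2 fold change of -0.51 ± 0.26 with IL-4 in the authors' deposited table (p = 0.0442, adjusted p = 1.00 by DESeq2). With PBS Slirp had means of 507 and 513. The median of the 105 was -0.018 with PBS (50 higher, 55 lower) and -0.0031 with IL-4 (52 higher, 53 lower). By process, the medians with IL-4 were 0.13 for 17 upstream regulators, -0.04 for 24 DNA maintenance genes, 0.05 for 18 genes of fusion, fission and transport, -0.08 for 8 cristae genes, 0.01 for 29 mitophagy genes and -0.08 for 10 proteases and partners. Stoml2 is in both the fusion and the protease list and is counted once among the 105.

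Sequence shared with other genes touches few members. Of the 31-base words in its longest transcript, Phb shared 50.3%, Tfb2m 43.3%, Bnip3l 27.4%, Bnip3 26.5% and Tfb1m 10.4% with transcripts of other genes, and every other member under 10%. For Phb the partner with the most shared words (42.8%) was the copy Gm7666, with a base mean of 72.9 with PBS and 45.7 with IL-4 against 1578 and 2238 for Phb. The next was Fyb, an adaptor gene of blood cells, with 17.5% of the words and base means above those of Phb, 5633 and 3842. Reads of these genes may be split with their copies, so their values are less certain than those of the rest.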

How the data were processed

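RNA of bone-marrow-derived macrophages was sequenced in 8 libraries, and the 2 tables used here compare NIK KO with WT over 4 libraries each. Per the submitters' processing notes, Salmon 1.4.0, DESeq2 1.32.0 and genome build GRCm39 were used, while their annotation and filters have no source here. The columns named in the file headers hold the base mean the authors deposited, a signal averaging counts over size factors, and the deposited log2 fold change with its log2 standard error. The authors also deposited the Wald statistic, a score, and its p-value and adjusted p-value. Values per library were not analysed here, so depth per library is unknown and the standard error sets the precision. Base means summed to 1.42e+07 with PBS and 1.66e+07 with IL-4. The direction NIK KO over WT comes from how the IL-4 table is named and was taken for the PBS table too. With IL-4 an adjusted p is given for 13642 of 14193 genes, and calls were counted over those.

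A gene was called at an adjusted p under 0.05 over the whole table. Group means were computed from base mean and fold change. The z test between treatments divides the difference in fold change by the combined standard error, two-sided, normal. Transcript length and shared words of 31 bases came from GENCODE M21 (GRCm38), which matched 13652 of 13676 and 14167 of 14193 gene IDs. Running medians used 501 genes. Python 3.11.15, numpy 2.4.6, pandas 2.3.3, scipy 1.17.1 and matplotlib 3.10.9 were used, and the steps were tested on simulated data. Full values are given for members with an unadjusted p under 0.05, or the 3 highest and lowest by Wald statistic in a table, and side by side for related pairs. Members, roles, related genes and markers were chosen with earlier results of these data known. Neither the labels nor the tables say that cultures of a mouse were repeated, so each group was taken as 2 mice. The p-values rest on the deposited standard errors, and the spread between the 2 mice of a group was not seen here. Marker lists of neutrophils, B cells, T cells, dendritic cells and progenitors were also read: 0 of their genes were called under either treatment, and summed means with IL-4 were 292 in WT and 213 in NIK KO, 44.5 and 18.0, 49.4 and 48.9, 129 and 113, and 399 and 409.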

Additional observations from a re-analysis of the deposited data

How the results depend on the processing

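Calls among the 35 members stayed at 0 under all alternatives run: no filter on base mean, a base mean of 100 or more, a t distribution (2 degrees of freedom within a table, 4 for the difference), genes with over 50% shared words left out, centred fold changes, trends on transcript length or base mean subtracted, and errors correlated at 0.5 for the difference. Over all genes those settings gave 0 to 6 calls with PBS, 0 to 17 with IL-4 and 0 to 20 for the difference, and a setting with 0 calls in all says nothing of the members: the t distribution, PBS without genes of shared words, and the difference at a base mean of 100 or more. The members' medians lay so near 0 that their sign turned. With PBS it went from -0.0014 to 0.0058 when centred, 4.9e-04 after the length trend and 0.0031 without genes of shared words. With IL-4 it went from 1.4e-04 to -0.0010 when centred, -0.0012 at a base mean of 100 or more, -0.028 after the length trend, -0.052 after the base mean trend and -5.1e-04 without genes of shared words. The 11 members with outer Wald statistics kept their sign under these settings, as their choice favours. Among all 35, sign changed for 1 (centred), 1 (length trend) and 3 (base mean trend) with PBS, and for 1, 3 and 5 with IL-4. The length trend turned Opa1 from 0.09 to -0.03, Mfn1 from 0.02 to -0.04 and Afg3l2 from 0.02 to -0.05. Without scaling between the tables, an alternative chosen after the data were seen, the median IL-4 over PBS ratio was 1.30 in WT and 1.37 in NIK KO in place of 1.08 and 1.13. Libraries could not be left out, since the tables give 1 value per comparison. No paired analysis was possible because the tables hold no values per library, and the mouse numbers are shared only between treatments of a genotype. Low counts limit Mtfp1, Ppargc1b with PBS, Polg2 and Tfb1m.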
